A study of Mus musculus with 2 samples.

Results

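Head-to-head gene pairs were examined in the allele-specific nuclear RNA of hybrid mouse embryonic stem (ES) cells. A pair consisted of a gene on the minus strand and a gene on the plus strand whose start lay 0 to 1000 bp to its right, so that the genes point away from each other across a shared stretch of DNA. Gene starts were taken as the centres of the 5000 bp windows in the deposited table, and only autosomes other than chromosomes 10 and 17 were used. The rule gave 1679 pairs with 3291 genes, which is 8.02% of the 41011 rows on these 17 autosomes (the whole table has 48550 rows). Both genes had enough reads for testing in 794 pairs (1587 genes), 1 gene in 561 pairs and neither in 324 pairs. There were 537 genes of the pairs at 0 reads in all columns, and 60 genes stood in more than 1 pair.

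The cells were F121-6, a female ES line from a cross of the mouse strains 129 and cas (castaneus), so that each autosome is present as 1 copy from each strain and reads covering a sequence difference can be assigned to an allele. They were grown with serum and LIF on a layer of mouse embryonic fibroblasts (MEFs) stopped from dividing with mitomycin C, and the strain of these feeder cells is not given in the labels. All values come from 1 group of 2 libraries, with no other genotype, treatment or time point. Strand-specific libraries of total nuclear RNA that had been sequenced earlier were sequenced again and merged, and the labels do not tell whether separate cultures stand behind them. The p-values therefore measure only the spread between these 2 libraries, which may be technical. In the fit of single genes this spread was shared by genes of like abundance, so an SE is not the gene's own spread.

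In library 1, 28523744 reads had an allele, 53.6% of them from 129, and in library 2 31402765 reads, 54.2% of them from 129. Of 10 ES cell markers 9 were tested, with 94519 and 98642 reads in the libraries and 129 shares from 49.2% to 68.5% (median 52.7%), while Sox2 was listed at 0. Of 24 fibroblast markers 21 were tested, with 59554 and 66709 reads, of which Fn1 held 42205 and 43423, and Twist1 and S100a4 were listed at 0. Their 129 shares ran from 51.9% to 99.8% (median 85.0%), 17 were called higher from 129 and 0 from cas (limma, 0 also at an unadjusted p under 0.05). Of the 9 tested ES cell markers 1 was called higher from 129 and 3 from cas. Over all tested genes 21.9 percent were called higher from 129 and 22.0 percent from cas. The part of feeder RNA in the results on pairs was not tested. In RNA from a mixture, fewer cells of a type and less RNA per cell cannot be told apart.

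A bidirectional promoter is a short region from which transcription starts in opposite directions on opposite strands. In mammals such promoters are usually rich in CpG dinucleotides and poor in TATA boxes, and genes for DNA repair, mitochondrial proteins and basic cell functions are common among those they serve. Divergent transcription is also a general feature of active promoters, and many coding genes have a noncoding partner that starts upstream on the other strand. In a hybrid cell, a sequence difference in the shared region is present for both genes at once, so the allelic ratios of partners can be set side by side.

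The DNA between the starts is shown for 5 pairs that the results turn on, as the plus strand of the reference, from RefSeq promoter windows of the build GRCm38.p6 (mm10). Capitals mark matches on either strand to the GC box (GGGCGG), the CCAAT box (CCAAT) or an ETS motif (CCGGAAG). Ptgs2os and Ptgs2 were both higher from 129, Platr23 and Zfp281 both higher from cas, and Lacc1 and Ccdc122 leaned to opposite alleles. Hspd1 and Hspe1 are a textbook bidirectional pair, and Lyrm4 and Fars2 were the pair with the most reads in its weaker gene.
Ptgs2os–Ptgs2, chr1:150099818-150100030: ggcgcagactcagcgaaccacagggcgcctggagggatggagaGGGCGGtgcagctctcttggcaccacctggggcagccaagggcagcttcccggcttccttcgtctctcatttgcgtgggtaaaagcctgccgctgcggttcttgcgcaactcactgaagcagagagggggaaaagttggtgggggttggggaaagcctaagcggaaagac
Platr23–Zfp281, chr1:136624651-136624900: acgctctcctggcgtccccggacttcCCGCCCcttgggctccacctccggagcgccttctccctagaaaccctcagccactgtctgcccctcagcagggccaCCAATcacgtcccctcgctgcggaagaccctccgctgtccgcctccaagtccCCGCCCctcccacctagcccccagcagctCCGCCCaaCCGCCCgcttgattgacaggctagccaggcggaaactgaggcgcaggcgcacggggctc
Lacc1–Ccdc122, chr14:77036642-77036771: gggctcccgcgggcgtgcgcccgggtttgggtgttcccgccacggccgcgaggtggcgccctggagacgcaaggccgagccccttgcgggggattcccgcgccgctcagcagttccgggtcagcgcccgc
Hspd1–Hspe1, chr1:55088025-55088131: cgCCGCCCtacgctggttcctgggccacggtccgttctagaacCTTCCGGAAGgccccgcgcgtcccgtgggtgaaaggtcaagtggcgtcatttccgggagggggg
Lyrm4–Fars2, chr13:36117358-36117410: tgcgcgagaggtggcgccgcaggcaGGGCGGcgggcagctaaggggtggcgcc
The region of Platr23 and Zfp281 held 4 GC boxes and 1 CCAAT box, that of Lacc1 and Ccdc122 none of the motifs searched. In that of Hspd1 and Hspe1, 2 ETS matches overlapped on opposite strands. A match is a stretch of letters and not a measured binding site, and the alleles of the cells may differ from this reference.

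Promoters of tested pairs were rich in CpG. A RefSeq window of 300 bp, from 250 bases before a start to 50 after it, lay within 200 bp of a gene start in 690 of the 794 tested pairs (86.9%). Their median GC content was 63.3% with 25 CpG per window, against 53.0% and 7 over all 28121 RefSeq promoters of these autosomes, which include those of silent genes. The ratio of observed to expected CpG had a median of 0.88 against 0.39. A TATA box (TATAAA, both strands as for all motifs) was in 4.20% of the windows of pairs and in 13.6% of all promoters. GC boxes were in 70.3% against 35.8%, CCAAT boxes in 44.3% against 37.2% and ETS motifs in 30.0% against 8.96%. Rarer motifs were the CRE (TGACGTCA) with 5.22% against 1.81%, the E box (CACGTG) with 12.2% against 6.95%, the core of the NRF1 motif (GCATGCGC) with 6.67% against 2.60% and that of the YY1 motif (AAGATGGCG) with 4.49% against 1.35%. A check against the tested genes outside pairs was void, since a window matched only 61.9% of those 11462 genes, so whether these features differ from those of other expressed genes was not tested.

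The starts of the tested pairs were close, with a median of 158 bp between them (165 bp over all pairs). In 263 tested pairs 0 to 100 bp lay between the starts, in 350 pairs 101 to 300 bp and in 181 pairs 301 to 1000 bp. Both genes were protein coding in 532 tested pairs, and 243 joined a coding gene with a noncoding one, most often an antisense RNA (77), a lincRNA (71) or a processed transcript (51). In 369 tested pairs (46.5%) both starts lay within 2 bp of a start in the GENCODE M21 annotation. The tested genes of pairs had a median of 468 and 546 allele reads in the libraries, against 383 and 461 over all tested genes.

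The first question was how many head-to-head genes differed between the alleles at all. For each gene the log2 ratio of 129 to cas was fitted with limma over all 15509 genes with at least 20 allele reads in each library, after scaling the columns by trimmed means, and a gene was called at an adjusted p under 0.05. Of the 2117 tested genes of pairs, 777 (36.7%) were called, where 43.9 percent of all tested genes were. Higher from 129 were 324 (15.3%), beside 21.9 percent of all tested genes, and higher from cas 453 (21.4%), beside 22.0 percent. All tested genes include those of chromosomes left out of the pairs. Over the 13579 tested genes of the autosomes used, 42.9% were called, 19.6% higher from 129 and 23.3% higher from cas. A ratio of at least 2-fold was seen in 214 of the called genes, and the median absolute log2 ratio was 0.31, against 0.40 over all tested genes. Of the 1802 coding genes of pairs 38.1% were called, against 42.8% of all tested coding genes of these autosomes, and of the 315 others 28.9%. The split by direction depended on the scaling. Of the calls among genes of pairs 41.7% were toward 129, but 84.0% with 1 library size shared by both allele columns of a library and 58.0% with the deposited column totals. The shared size moved the median log2 ratio of all tested genes to 0.32 and that of genes in pairs from -0.06 to 0.26.

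The agreement of partners was then described by the 129 share, which is the percentage of a gene's allele reads that came from 129, averaged over the libraries. It was used for the 476 pairs with 100 or more allele reads per library in both genes. Across these pairs the shares of the minus-strand and the plus-strand gene agreed weakly, with a Pearson r of 0.29 and a Spearman rank correlation of 0.26. The nearest tested gene on the same strand, with its start at most 100 kb away and no overlap of annotated spans, served as comparison. Over 611 such neighbour pairs, whose starts were a median of 36675 bp apart, r was 0.22 and the rank correlation 0.21. Over all 3206 consecutive same-strand pairs r was 0.17, and over 302 divergent pairs with starts 1001 to 10000 bp apart it was 0.26. These correlations are descriptions across pairs that share both libraries, so that noise within a library can add to them. With the left gene read in 1 library and the right gene in the other, r was 0.24 and 0.27 for head-to-head pairs and 0.17 and 0.21 for neighbours. The difference between head-to-head pairs and neighbours was not tested.

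**Figure D1:**
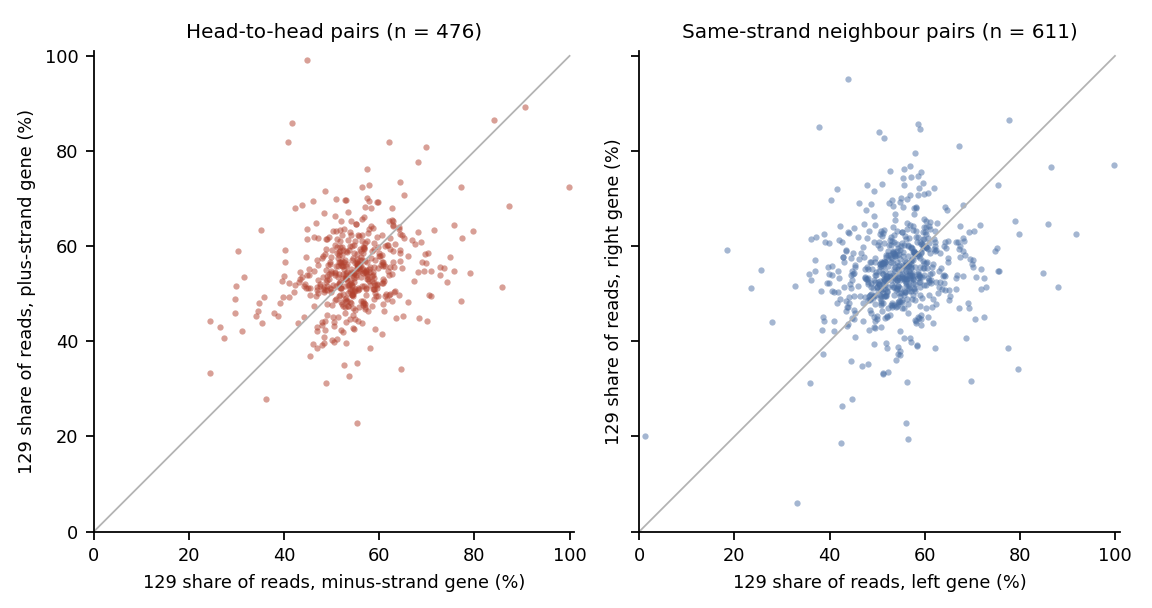
Percentage of allele reads from 129 in both genes of a pair (mean of 2 libraries), for 476 head-to-head pairs (left) and 611 same-strand neighbour pairs (right), 1 point a pair, with the line of equal shares. Both clouds are centred near the same share on each axis, with r of 0.29 and 0.22, and single pairs lie far from the line in both.

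A few pairs with strong bias carried part of this. Without the 2 pairs farthest from the median share, r was 0.25 for head-to-head pairs and 0.17 for neighbours. In the 439 head-to-head pairs with both shares within 20 percentage points of the median gene, it was 0.18, and in 564 neighbour pairs 0.14. Median shares per chromosome ran from 53.5% (chromosome 16) to 57.3% (chromosome 3) over the tested genes. With shares taken relative to the chromosome's median, r was 0.28 for head-to-head pairs and 0.21 for neighbours.

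In absolute terms, partners differed by about as much as neighbours. The median difference of the 129 share was 5.99 percentage points in head-to-head pairs and 5.80 points in neighbour pairs, with upper quartiles of 10.2 and 12.4 points. The same gene differed between the libraries by a median of 3.09 points (951 genes of the head-to-head pairs, r of 0.78). A difference of at most 5 points was found in 206 head-to-head pairs (43.3%) and 262 neighbour pairs (42.9%), and one above 20 points in 25 (5.25%) and 51 (8.35%). For 497 genes both a partner and a neighbour could be read. The partner was closer in 129 share for 253 of them (50.9%) and the neighbour for 244, with median differences of 5.92 and 5.81 points.

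**Figure D2:**
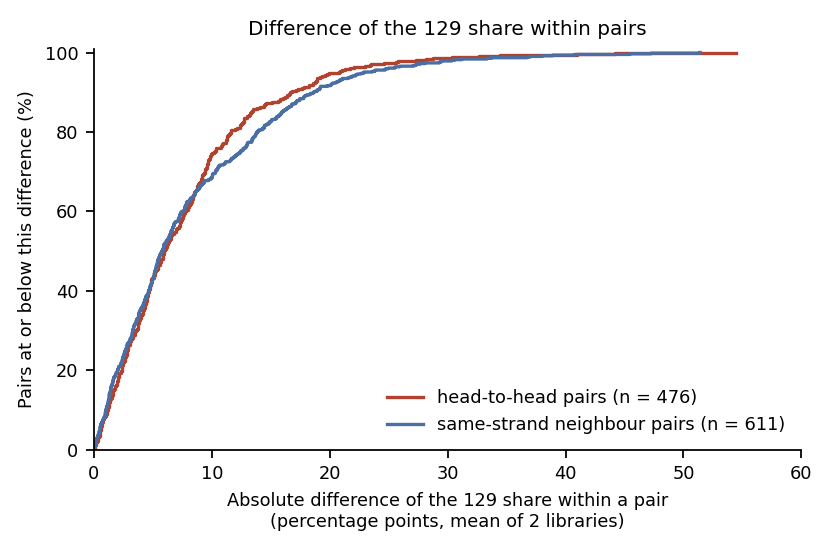
Cumulative percentage of pairs by the absolute difference of the 129 share of their genes, in percentage points (mean of 2 libraries), for 476 head-to-head and 611 same-strand neighbour pairs. The curves run together up to the medians of 5.99 and 5.80 points and separate above them, where the upper quartiles are 10.2 and 12.4 points.

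Agreement did not follow the distance between the starts in order. With 0 to 100 bp between them, r was 0.34 over 159 pairs and the median difference 5.46 points. The next class, 101 to 200 bp, had r of 0.19 over 138 pairs and 7.62 points. At 201 to 400 bp r was 0.40 over 116 pairs, or 0.25 without the 2 pairs farthest from the median, and at 401 to 1000 bp it was 0.25 over 63 pairs. Coding pairs had r of 0.21 (389 pairs), and pairs of a coding and a noncoding gene 0.47 (73 pairs), which fell to 0.12 over the 58 with both shares within 20 points of the median. Among neighbours, those with starts 10 to 20 kb apart had r of 0.54 over 81 pairs, or 0.31 without the 2 farthest, and those 50 to 100 kb apart 0.09 over 225 pairs.

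Counts of called genes were then compared over pairs. Both genes were called in 123 of the 794 tested head-to-head pairs (15.5%), beside 15.0 percent of consecutive same-strand pairs. In 87 of them both genes leaned to the same allele (34 to 129, 53 to cas) and in 36 to opposite alleles, where 10.3 percent of consecutive same-strand pairs had both genes called the same way. The share of same-direction pairs among those with both called was 70.7% for head-to-head pairs, 69.2% for neighbours (99 of 143) and 74.3% for divergent pairs (55 of 74). For the neighbours with starts within 20 kb it was 77.8% (21 of 27). In 323 head-to-head pairs only 1 gene passed, and in 348 neither did. Scaling moved this share as well. Without library as a block, 35 head-to-head pairs had both genes called, 30 of them the same way. With 1 shared library size, 149 of 170 head-to-head pairs (87.6%) and 173 of 215 neighbour pairs (80.5%) had both genes called the same way.

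A gene can pass where its partner misses the threshold by little, so the difference within each pair was fitted itself. For this the log2 ratio of the minus-strand gene was subtracted from that of the plus-strand gene in each library, which removes the scaling between allele columns for all but genes with few reads, and limma was fitted over 7476 pairs of all kinds together. A difference was called in 133 of 794 head-to-head pairs (16.8%), where 23.0 percent of all pairs fitted were called. In same-strand neighbours the count was 229 of 1085 (21.1%) and in divergent pairs 127 of 576 (22.0%). In the neighbours with starts within 20 kb it was 37 of 236 (15.7%), with a median SE of 0.45, against 0.35 in head-to-head pairs. Among pairs with at least 100 reads it was 105 of 476 head-to-head pairs (22.1%) and 161 of 611 neighbour pairs (26.4%). Within 20 kb it was 22 of 111 such neighbour pairs (19.8%). The weaker gene of a pair had a median of 365.5, 319 and 231 reads in these sets, so that depth differed between them.

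**Figure D3:**
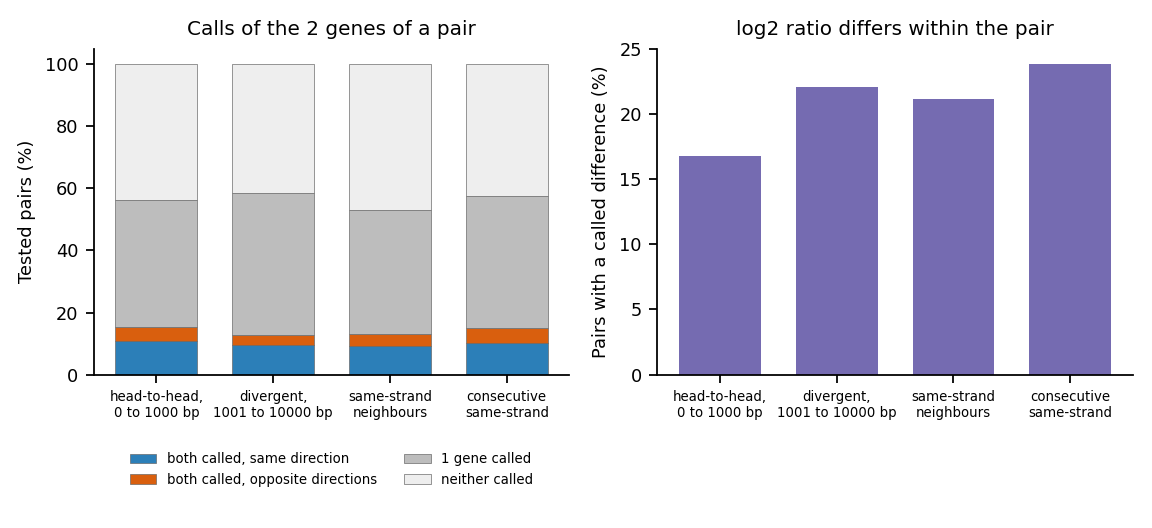
Left, percentage of tested pairs with both genes called for the same allele, both called for opposite alleles, 1 gene called or neither called, in 4 kinds of pair. Right, percentage of pairs whose log2 ratio of 129 to cas differed between their genes at an adjusted p under 0.05, which was 16.8% of head-to-head pairs and 21.1% of same-strand neighbours.

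Among pairs with both genes higher from 129, Ptgs2os and Ptgs2 stood first, by the smaller of their ratios. Ptgs2 encodes cyclooxygenase 2, the inducible enzyme of prostaglandin synthesis, and Ptgs2os is the noncoding transcript on the opposite strand. Ptgs2 had 607 reads from 129 and 75 from cas in library 1, and 690 and 80 in library 2, a 129 share of 89.3% ± 0.43 (SD, n = 2) and a log2 ratio of 2.71 ± 0.20 (SE, adjusted p = 4.70e-41). Ptgs2os had 126 and 23 reads in library 1 and 227 and 8 in library 2, a share of 90.6% ± 8.51 (SD, n = 2) and a log2 ratio of 3.17 ± 0.42 (SE, adjusted p = 4.58e-13). Its log2 ratio was 2.10 in library 1 and 4.24 in library 2, so its own spread was wider than this SE. Both genes lay far on the 129 side in each library, and the shares of Ptgs2os on both sides of those of Ptgs2. The difference of their ratios, -0.46 ± 0.49 (SE), was not called (adjusted p = 0.552). The fibroblast markers also leaned to 129 (17 of 21 called), and their part in this pair was not tested.

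On chromosome 7, 2 pairs lay near each other. Zfp553, a zinc finger gene, had 129 shares of 88.3% and 84.8% in the libraries, and its partner, a row listed under the date-like symbol 1-Sep that was not matched to the annotation, had 84.5% and 83.9%. Tbc1d10b, a regulator of Rab GTPases, had shares of 72.5% and 63.9%, and Mylpf, a myosin light chain of fast muscle, 79.2% and 76.0%. Zfp553 is also the nearest same-strand gene of Mylpf, with 24162 bp between their starts, and Zfp771, at 11213 bp on the other side, had 79.1% and 73.9%. All of these genes leaned to 129 in both libraries. Cd2bp2, the neighbour of Tbc1d10b, had 53.4% and 57.6%.

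Recql, a RecQ-family helicase, had 129 shares of 79.5% and 72.1%, and Golt1b, a Golgi transport gene, 66.1% and 62.7%. The difference of their log2 ratios was -0.80 ± 0.26 (SE, adjusted p = 0.0288), so that both leaned to 129 by unequal amounts. Without the library block neither this difference (adjusted p = 0.0861) nor the ratio of Golt1b (adjusted p = 0.0535) was called. Brix1, a ribosome assembly factor, had 64.5% and 64.2%, and Rad1, a subunit of the checkpoint clamp loaded at damaged DNA, 70.2% and 76.7%. Their log2 difference of 0.62 ± 0.24 (SE) missed the threshold (adjusted p = 0.0659).

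Among pairs with both genes higher from cas, leaving out symbols of predicted genes, Trappc13 and Trim23 stood first by the smaller of their ratios. Trappc13, of the TRAPP vesicle-tethering complex, had 706 reads from 129 and 1354 from cas in library 1, and 799 and 1302 in library 2, a 129 share of 36.2% ± 2.66 (SD, n = 2). Trim23, a ubiquitin ligase, had 487 and 1496, and 634 and 1401, a share of 27.9% ± 4.66 (SD, n = 2). Trim23 lay below Trappc13 in both libraries, and their log2 difference of -0.56 ± 0.13 (SE) was called (adjusted p = 0.00352). Their same-strand neighbours were nearer to even, with shares of 54.9% and 51.0% for Ppwd1 and 45.9% and 42.2% for Cenpk.

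Platr23 and Zfp281 came next by the same measure. Zfp281, a zinc finger regulator of pluripotency, had 168 reads from 129 and 239 from cas in library 1 and 231 and 307 in library 2, a share of 42.1% ± 1.17 (SD, n = 2). The lincRNA Platr23 had 68 and 133, and 85 and 212, a share of 31.2% ± 3.68 (SD, n = 2). Platr23 was lower than Zfp281 in both libraries, with a log2 difference of 0.67 ± 0.31 (SE) that was not called (adjusted p = 0.126).

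Lyrm4, which serves in mitochondrial iron-sulphur cluster assembly, and Fars2, the mitochondrial phenylalanyl-tRNA synthetase, had the most reads of any pair by their weaker gene. Lyrm4 had 3851 reads from 129 and 7114 from cas in library 1 and 4577 and 8326 in library 2, a share of 35.3% ± 0.25 (SD, n = 2). Fars2 had 8430 and 11313, and 9878 and 11980, a share of 43.9% ± 1.76 (SD, n = 2). Both genes were higher from cas in each library and their shares did not overlap. Their log2 difference of 0.52 ± 0.07 (SE) was called (adjusted p = 1.83e-06), with 53 bp between the starts.

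Of the remaining 3 such pairs, Mesdc1 and Mesdc2 differed most. Mesdc1 had shares of 21.1% and 27.8% and Mesdc2, a chaperone of Wnt co-receptors, 42.6% and 45.9%, with a log2 difference of 1.29 ± 0.29 (SE, adjusted p = 0.00172). Mfap1a, a splicing factor, had 42.9% and 34.5%, and Wdr76, a WD-repeat gene, 45.3% and 45.2%. The histone genes Hist1h2bl (48.9% and 41.9%) and Hist1h2ai (40.4% and 33.5%) have near-identical copies, as has Mfap1a, so their counts are uncertain. The direction of Mesdc2 was not called with 1 shared library size (adjusted p = 0.168) or without library as a block (adjusted p = 0.103). That of Hist1h2bl was not called under any of the 4 other settings run, with adjusted p from 0.0502 with a pseudocount of 0.5 CPM to 0.402 with the shared size.

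Among partners called for opposite alleles, leaving out symbols of predicted genes, the log2 difference was largest for Pecam1 and Milr1, with 597 bp between the starts on chromosome 11. Pecam1, an adhesion molecule of endothelial cells that ES cells also express, had 1862 reads from 129 and 2503 from cas in library 1 and 2362 and 3468 in library 2, a 129 share of 41.6% ± 1.52 (SD, n = 2). Milr1, an inhibitory receptor of mast cells, had 237 and 42, and 215 and 33, a share of 85.8% ± 1.24 (SD, n = 2). The groups of values were far apart, and the log2 difference was 3.05 ± 0.33 (SE, adjusted p = 2.71e-07). Polg2, the same-strand neighbour of Pecam1, leaned to 129 with 66.0% and 77.9%, unlike Pecam1. Cep95, the same-strand neighbour of Milr1, leaned to 129 as Milr1 did, with 63.2% and 66.2%.

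Lacc1 and Ccdc122 had 130 bp between their starts, at 77036641 and 77036772 of chromosome 14. Lacc1, an enzyme known from macrophages, had 241 reads from 129 and 331 from cas in library 1 and 267 and 407 in library 2, a share of 40.9% ± 1.78 (SD, n = 2) and a log2 ratio of -0.86 ± 0.17 (SE, adjusted p = 2.67e-06). Ccdc122, a coiled-coil gene, had 788 and 185, and 970 and 203, a share of 81.8% ± 1.21 (SD, n = 2) and a log2 ratio of 1.84 ± 0.15 (SE, adjusted p = 5.92e-34). Across these few bases the shares differed by 41.0 points, and the log2 difference was 2.70 ± 0.21 (SE, adjusted p = 6.28e-10).

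In 3 further pairs the difference was also large. Elmod3 had shares of 66.0% and 63.1% and Retsat, retinol saturase, 41.8% and 26.5%, a log2 difference of -1.82 ± 0.27 (SE, adjusted p = 1.84e-05). Senp8, a protease of NEDD8, had 75.8% and 78.7% and Myo9a, an unconventional myosin, 48.3% and 48.7%, a log2 difference of -1.82 ± 0.41 (SE, adjusted p = 0.00185). Pxmp2, a peroxisomal membrane protein, had 32.2% and 28.4% and Pole, the catalytic subunit of DNA polymerase epsilon, 57.7% and 60.3%, a log2 difference of 1.72 ± 0.26 (SE, adjusted p = 2.22e-05). In each of them the shares of partners did not overlap, which the choice of pairs by their called difference made likely beforehand. The direction of Myo9a was not called with 1 shared library size (adjusted p = 0.242), and those of Elmod3 (adjusted p = 0.108) and Pole (adjusted p = 0.255) were not called without library as a block.

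**Figure D4:**
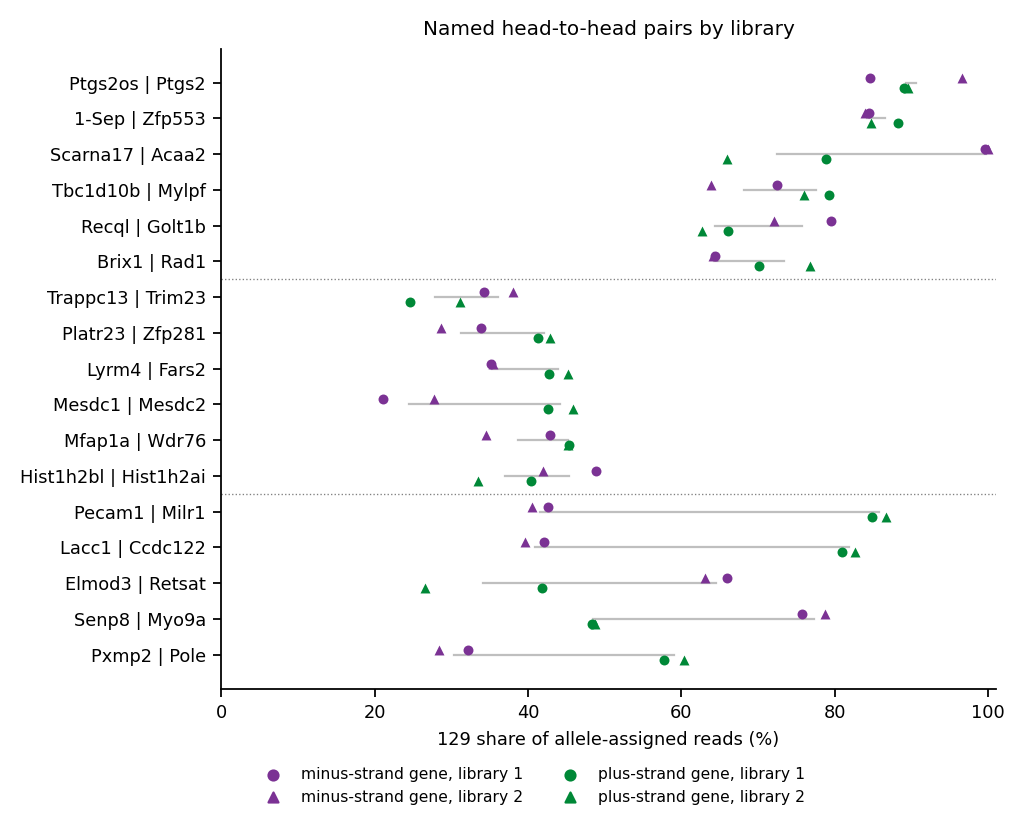
Percentage of allele reads from 129 in each library for the minus-strand and plus-strand gene of 17 named pairs, 6 with both genes called higher from 129, 6 with both higher from cas and 5 called in opposite directions, with a grey line joining the mean of each gene. Lines are longest in Pecam1 and Milr1 (41.6% and 85.8%) and Lacc1 and Ccdc122 (40.9% and 81.8%).

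Textbook bidirectional pairs included both close and distant partners. Of 10 such pairs described here, 4 had a called difference, beside 16.8% of head-to-head pairs and 23.0 percent of all pairs fitted. In 1 both genes were called the same way, beside 10.3 percent of consecutive same-strand pairs. In 2 they were called in opposite ways, beside 282 of 6076 consecutive same-strand pairs. The median difference in share was 9.14 points, beside 7.47 points over all 794 tested pairs. Hspd1 and Hspe1 encode the mitochondrial chaperonin and its lid. Hspd1 had 1061 reads from 129 and 1114 from cas in library 1 and 831 and 1202 in library 2, a share of 44.8% ± 5.59 (SD, n = 2). Hspe1 had 451 and 222, and 412 and 272, a share of 63.6% ± 4.79 (SD, n = 2). Hspe1 was above Hspd1 in both libraries, by a log2 difference of 1.11 ± 0.20 (SE, adjusted p = 0.000192), though its own ratio was not called without the block (adjusted p = 0.116).

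Several textbook pairs join genes of DNA repair. Atm, the kinase that signals double-strand breaks, had 129 shares of 46.7% and 45.9% and Npat, a coactivator of histone genes, 53.0% and 56.5%, a log2 difference of 0.49 ± 0.09 (SE, adjusted p = 0.000420). Chek2, a checkpoint kinase, had 43.0% and 43.8%, while Hscb, an iron-sulphur co-chaperone, had 58.7% and 88.0% on few reads (44 and 31, then 73 and 10). Their log2 difference was -1.99 ± 0.58 (SE, adjusted p = 0.0143). Without library as a block neither this difference (adjusted p = 0.0912) nor the ratio of Hscb (adjusted p = 0.136) was called.

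In the other 6 textbook pairs no difference was called. Mcm4, a subunit of the replicative helicase, had 48.5% and 49.7% and Prkdc, the DNA-dependent protein kinase, 47.4% and 48.2%, a log2 difference of -0.08 ± 0.12 (SE, adjusted p = 0.696). Both were called for cas, but Mcm4 was not with 1 shared library size (adjusted p = 0.672) or without library as a block (adjusted p = 0.106). Brca1, of homologous recombination, had 55.9% and 52.3% and Nbr1, an autophagy receptor, 55.4% and 55.0%, a log2 difference of 0.06 ± 0.10 (SE, adjusted p = 0.694). The values of Nbr1 lay within those of Brca1, and Prkdc lay just below Mcm4. No difference was called for Ndufaf2 with the repair gene Ercc8 (adjusted p = 0.214) or Wrn with Purg (adjusted p = 0.0923). Nor was one called for Aimp2 with Pms2 (adjusted p = 0.0556) or Mrps12 with Sars2 (adjusted p = 0.480). The mean shares in these last pairs were 13.2 and 9.79 points apart. Mrps12 had few reads (29 from 129 and 33 from cas in library 1, 58 and 26 in library 2). With a pseudocount of 0.5 CPM the difference of Aimp2 and Pms2 was called (adjusted p = 0.0380). A p that misses the threshold does not show that partners were equal.

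Genes of DNA replication and repair, from a list of 98 on these autosomes, were in head-to-head pairs in 34 cases (34.7%). Of all rows on these autosomes 8.02% were in such pairs, and of the 11736 tested coding genes 1802 were. Of the 33 tested, 3 were called for 129, 15 for cas and 15 for neither, with a median log2 ratio of -0.27 against -0.0026 over all tested genes. That is 54.5% called, beside 43.9 percent of all tested genes. The direction depended on the scaling, since with 1 shared library size 10 were called for 129 and 5 for cas, with a median of 0.06. Without library as a block 1 and 8 were called. Their 28 tested pairs had a median difference of 8.46 points and 9 called differences (beside 23.0 percent of all pairs tested). Both genes were called the same way in 5 of these pairs and in opposite ways in 4. Over all 794 tested head-to-head pairs these counts were 87 and 36, and over 6076 consecutive same-strand pairs 627 and 282. Palb2, which links Brca1 and Brca2, had 46.4% and 47.6%, and its partner Dctn5, of the dynactin complex, 43.3% and 33.9%, both called for cas. Rpa1, of the single-strand binding protein RPA, had 52.3% and 49.9%, and Smyd4 59.4% and 63.5%, a log2 difference of 0.61 ± 0.14 (SE, adjusted p = 0.00237). The origin recognition gene Orc5 had 61.8% and 62.2% and its noncoding partner 6030443J06Rik 80.8% and 83.0%, both called for 129.

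Genes of mitochondria, of protein turnover and of transcription form smaller lists, whose counts stand beside 43.9 percent of all tested genes and 23.0 percent of all pairs called. Of 15 tested mitochondrial ribosomal genes 1 was called, for 129, and limma called a difference in 0 of their 13 pairs (1 at an unadjusted p under 0.05). Of 9 tested genes of complex I and its assembly limma called 0 (1 at an unadjusted p under 0.05), with 1 called difference in 8 pairs and a median difference of 2.72 points. Ndufs1 and Eef1b2, with 2 bp between the starts, had 52.6% and 56.2% against 57.3% and 57.1%. Among 7 proteasome genes 1 was called, for 129, and limma called a difference in 0 of 7 pairs (0 also at an unadjusted p under 0.05). Of 10 tRNA synthetases 3 were called, all for cas, and Yars, for tyrosine, had 45.5% and 47.4% where its partner S100pbp had 55.1% and 60.1% (log2 difference -0.65 ± 0.14, SE, adjusted p = 0.000950). Of 9 RNA polymerase genes 3 were called for 129 and 2 for cas. These counts changed with the scaling. With 1 shared library size 4 mitochondrial ribosomal, 2 complex I, 4 proteasome and 5 RNA polymerase genes were called, all for 129, and of the tRNA synthetases 3 for 129 and 3 for cas.

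Imprinted genes gave 3 tested pairs, 2 of them with a called difference, beside 23.0 percent of all pairs fitted. Of their 6 tested genes in pairs 4 were called, all for cas, beside 43.9 percent of all tested genes. With 1 shared library size 2 of the 6 were called, and without library as a block also 2, again all for cas. Peg10 and Sgce are both expressed from the paternal copy in many tissues. Peg10 had 907 reads from 129 and 1385 from cas in library 1 and 776 and 1106 in library 2, a share of 40.4% ± 1.17 (SD, n = 2). Sgce had 361 and 318, and 334 and 344, a share of 51.2% ± 2.76 (SD, n = 2). Neither gene was near 0% or 100%, and their log2 difference was -0.63 ± 0.20 (SE, adjusted p = 0.0229). Peg3 had 35.8% and 33.7% and its partner Usp29 49.8% and 46.4%, a log2 difference of 0.80 ± 0.29 (SE, adjusted p = 0.0479).

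Of the 4 pairs with the most reads in their weaker gene, Lyrm4 and Fars2, described above, differed by 8.65 points. The other 3 pairs differed by less, and not all of their differences were called. Over the 190 head-to-head pairs with at least 500 reads per library in both genes, the median difference was 4.70 points. Orc4, of the origin recognition complex, had 49.6% and 51.8% and Mbd5, a methyl-CpG-binding domain gene, 53.4% and 54.7%, a log2 difference of 0.19 ± 0.08 (SE, adjusted p = 0.0922). Dtl, a substrate receptor of a ubiquitin ligase, had 53.1% and 53.4% and Ints7, of the Integrator complex, 48.5% and 48.5%, a log2 difference of -0.27 ± 0.09 (SE, adjusted p = 0.0263). Zfp277 had 51.5% and 51.8% and Dock4, an activator of Rac, 58.8% and 57.6%, a log2 difference of 0.38 ± 0.08 (SE, adjusted p = 0.00156). In these 3 pairs the shares of partners did not overlap, and their mean shares were 3.34, 4.74 and 6.55 points apart.

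Among the named pairs, the 2 widest called differences in log2 ratio were in pairs with a noncoding gene, Eapp with Gm22513 and Acaa2 with Scarna17. Eapp, an E2F-binding protein, had 41.8% and 47.7%, and the snRNA gene Gm22513 1218 reads from 129 and 7 from cas in library 1 and 2089 and 22 in library 2, a log2 difference of 7.15 ± 0.30 (SE, adjusted p = 5.78e-15). Small nuclear RNA genes have near-identical copies, so the origin of such reads is uncertain. Dynll1, a dynein light chain, had 53.2% and 57.6% and the lincRNA Gm13830 28.1% and 17.3%, a log2 difference of -2.08 ± 0.35 (SE, adjusted p = 9.32e-05). By contrast Naa11, an acetyltransferase gene, had 25.5% and 23.4% and its partner 4930467D21Rik 34.4% and 32.4%, both called for cas with no called difference (adjusted p = 0.230). Acaa2, a thiolase of mitochondrial fat oxidation, stood opposite 2 rows of small Cajal body RNAs. With 78.9% and 66.0% it was close to Gm23119 (76.6% and 77.7%) and below Scarna17 (99.6% and 100%), and the 3 were called for 129. Scarna17 had only 1 and 0 reads from cas. The log2 difference of Acaa2 and Scarna17 was -5.51, and -3.60 with a pseudocount of 0.5 CPM. In share they differed by 27.3 points, less than Pecam1 and Milr1 (44.2 points). Without library as a block Acaa2 (adjusted p = 0.0589) was not called.

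Pairs on both sides of the 1000 bp limit were read as a description. Just inside it were Btf3l4 and Txndc12 (986 bp), Smim7 and Tmem38a (984 bp) and Lnx2 and Polr1d (961 bp), whose mean shares differed by 14.7, 5.60 and 11.1 points. Just outside were Nacc1 and Trmt1 (1003 bp), Ddias and Prcp (1004 bp) and Sgsm2 and Tsr1 (1017 bp), with differences of 3.78, 7.27 and 0.37 points.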

How the data were processed

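Nuclear RNA of 2 libraries was read as 100 bp paired ends, per the labels' protocols, and aligned with Bowtie2 to mm10, per the submitters' processing notes. How reads were counted, whether strand was used and which sequence differences separated the alleles is not given in any source used here. The deposited values are RPKM, 1 column for each allele of each library, although per the file headers they are called counts. Within a column, values times length were whole multiples of 1 step, so whole reads were recovered (100.0% of values within 0.01 read). The deposited lengths are not those of the genes, hence levels of different genes were not compared.

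The design assumed counts. Since values came as RPKM, the log2 scale was used: limma 3.58.1 (R 4.3.3) was fitted to log2 of CPM of the recovered reads plus 0.1, with trended variances, trimmed-mean scaling, library as a block and Benjamini-Hochberg adjustment over 15509 genes or 7476 pairs. The pseudocount shrinks fold changes of genes with few reads, and the prior degrees of freedom of the gene fit were infinite, which means that genes of like abundance shared 1 spread. The block pairs the alleles of a library, which come from 1 RNA sample by the labels. The change between libraries had an r of 0.09 across genes between the alleles. Chi-square per degree of freedom of reads between the libraries was 28.0, so they are not copies of 1 library. The code was tested on simulated data.

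Annotation was from GENCODE M21 (46362 rows by name, 1803 by position). Members, lists and tests were chosen with earlier results of these data known. Named pairs had at least 100 reads per library in both genes, except the textbook pairs. They were the 6 pairs with both genes called for each allele and the largest smaller ratio, the 6 opposite pairs with the largest called difference, all tested textbook pairs, the 4 with most reads, 3 and 3 with a noncoding partner, and the 3 nearest the distance limit on each side. Symbols of predicted genes (Gm, Rik and the like) were allowed only for noncoding partners. Of the pairs the rule named, 2 are not reported here. Members of functional lists named beyond these were chosen after their values were seen. Alternatives were scaling, pseudocount, read minimum, block, single libraries and subsets of pairs.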

Additional observations from a re-analysis of the deposited data

How the results depend on the processing

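Without library as a replicate block, 3954 of 15509 genes were called, among them 368 of 2117 genes of head-to-head pairs, and a difference in 103 of 794 head-to-head and 165 of 1085 neighbour pairs. Both genes were called the same way in 30 and 32 pairs, and of 73 named gene ratios 17 and of 37 named differences 3 were no longer called. With 1 shared library size, 149 head-to-head and 173 neighbour pairs had both genes called the same way, and 13 named genes changed sign, 5 of them called under neither scaling. The other 8 were Npat (0.27), Brca1 (0.24), Nbr1 (0.30), Wrn (0.24), Orc4 (0.040), Mbd5 (0.23), Zfp277 (0.095) and Dtl (0.19). No sign of a named difference within a pair changed under this scaling, the deposited column totals, the larger pseudocount or the missing block.

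The r of 0.29 in head-to-head pairs was 0.33 with at least 20 reads, 0.25 with 500, 0.26 on log2 ratios, 0.34 with starts at most 500 bp apart, 0.21 in coding pairs and 0.43 in the 161 pairs without an annotated gene overlapping on the opposite strand. Among alternatives added after seeing the data, it was 0.37 with starts at GENCODE starts, 0.25 without the 2 farthest pairs, 0.18 within 20 points of the median and 0.28 relative to chromosome medians. Leaving out a library gave 0.26 to 0.28. The r of 0.22 in neighbours was 0.18 with 20 reads, 0.0999 with 500, 0.23 on log2 ratios, 0.50 within 20 kb, 0.17 over all consecutive genes, 0.19 in coding pairs, and 0.17, 0.14 and 0.21 under the same added alternatives, or 0.19 to 0.20 in single libraries. Median differences in head-to-head and neighbour pairs were 7.47 and 7.77 points with 20 reads, 4.70 and 4.29 points with 500, and 0.35 and 0.34 as log2 ratios. In single libraries they were 5.64 to 7.53 and 6.30 to 7.51 points. For neighbours within 20 kb the median was 5.09 points, and over consecutive genes 6.99 points. The r of 0.50 within 20 kb, over 111 pairs, was 0.32 without the 2 farthest pairs and 0.13 within 20 points of the median.

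Subsets changed counts with the number of pairs in them. Without opposite-strand overlap 50 of 280 head-to-head pairs had a called difference and 35 had both genes called the same way, and with GENCODE starts 59 and 37 of 369. Neighbours gave 144 and 52 of 551 pairs with 100 reads, 37 and 21 of 236 within 20 kb and 1446 and 627 of 6076 consecutive pairs. The causes of these changes were not tested. The planned quasi-likelihood count test was not run, since the deposited unit is RPKM, and calls without a library could not be made, as no residual degree of freedom would remain. Genes under 20 reads in a library were not tested, which left 885 pairs without a within-pair value.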
